A study of Mus musculus with 24 samples.

Results

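The Zbtb16 libraries form a 2 by 2 design of genotype and cell fraction. They can show which genes changed differently with loss of ZBTB16 in 2 sorted fractions, labelled undifferentiated and differentiating spermatogonia. All 12 libraries of the Zbtb16 table were used, of 24 in the series, with 3 in each of 4 groups. The groups were WT THY1+ undifferentiated spermatogonia (uSPG), WT KIT+ differentiating spermatogonia (dSPG), Zbtb16 null THY1+ uSPG and Zbtb16 null KIT+ dSPG, all from mice at postnatal day 7. Null mice were homozygous for luxoid (Zbtb16 lu/lu), a loss-of-function allele present in every cell of the animal, on a C57BL/6J background, and the controls were WT littermates. Testes of 3 mice were pooled for an isolation, and fractions were taken from the digested testis with magnetic beads against THY1 or KIT, so somatic cells that carry or trap the beads can be present. For each gene the interaction was the log2 change from WT to null in KIT+ dSPG less the log2 change from WT to null in THY1+ uSPG, with the replicate number as a block. A value below 0 means that the null raised a gene less, or lowered it more, in KIT+ dSPG than in THY1+ uSPG.

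ZBTB16 (also PLZF) is a BTB-POZ zinc finger protein that recruits histone deacetylases and Polycomb proteins and is best known as a repressor. In the testis it marks undifferentiated spermatogonia, the population that holds the stem cells, and its loss leads to progressive depletion of the germline. Retinoic acid moves these cells into the KIT+ state, in which Stra8 is induced, cells divide in large synchronous clones and the first components of meiosis are made.

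Zbtb16 RNA followed the genotype labels, and Kit and Thy1 RNA followed the fraction labels. These genes do not show that a fraction was pure. Zbtb16 was at 55.7, 58.7 and 41.97 FPKM (a read count scaled by transcript length and by library depth) in replicates 1 to 3 of WT THY1+ uSPG, and at 17.5, 18.2 and 15.6 FPKM in null THY1+ uSPG. It was at 14.4, 23.0 and 17.1 FPKM in WT KIT+ dSPG and at 6.69, 6.59 and 6.11 FPKM in null KIT+ dSPG. RNA of the mutated locus fell in both fractions without overlap, and its interaction was 0.14 on the log2 scale (SE 0.183, adjusted p 0.612). Kit, the sorting antigen of dSPG, was at 13.8 to 21.1 FPKM in all 6 THY1+ libraries and at 51.7 to 74.8 FPKM in all 6 KIT+ libraries, with an interaction of 0.07. Thy1 was at 3.29 to 4.67 FPKM in THY1+ and 0.156 to 0.666 FPKM in KIT+ libraries, with an interaction of 0.50 (adjusted p 0.398). Both fractions also held RNA of somatic cell markers, described below. A list of Leydig cell genes summed to 1226 to 2286 FPKM in WT KIT+ dSPG and 87.9 to 126 FPKM in WT THY1+ uSPG. A macrophage list summed to 1086 to 1267 FPKM in WT THY1+ uSPG and 7.68 to 9.82 FPKM in WT KIT+ dSPG. Libraries held an estimated 26.0 to 35.2 M reads, read from the spacing of low FPKM values of single-exon genes.

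Of 22374 genes tested, 2756 were called (adjusted p of at most 0.05 and at least 1.5-fold, limma), 2027 above 0 (9.06% of genes tested) and 729 below 0 (3.26%). Calls below 0 had a median change of 0.60 (log2) in THY1+ uSPG and -0.23 in KIT+ dSPG, and 364 of the 729 were also called higher in null THY1+ uSPG (background 4.36% of genes tested). Calls above 0 had medians of -0.56 and 0.53, and 582 of the 2027 were called lower in null THY1+ uSPG (background 4.49%). In KIT+ dSPG alone 351 genes were called higher (1.57%) and 162 lower (0.724%). These contrasts share libraries with the interaction, so the counts describe the calls and are not separate evidence. Only 34 interaction calls were called in opposite directions in the fractions, 32 of them lower in null THY1+ uSPG and higher in null KIT+ dSPG.

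**Figure D1:**
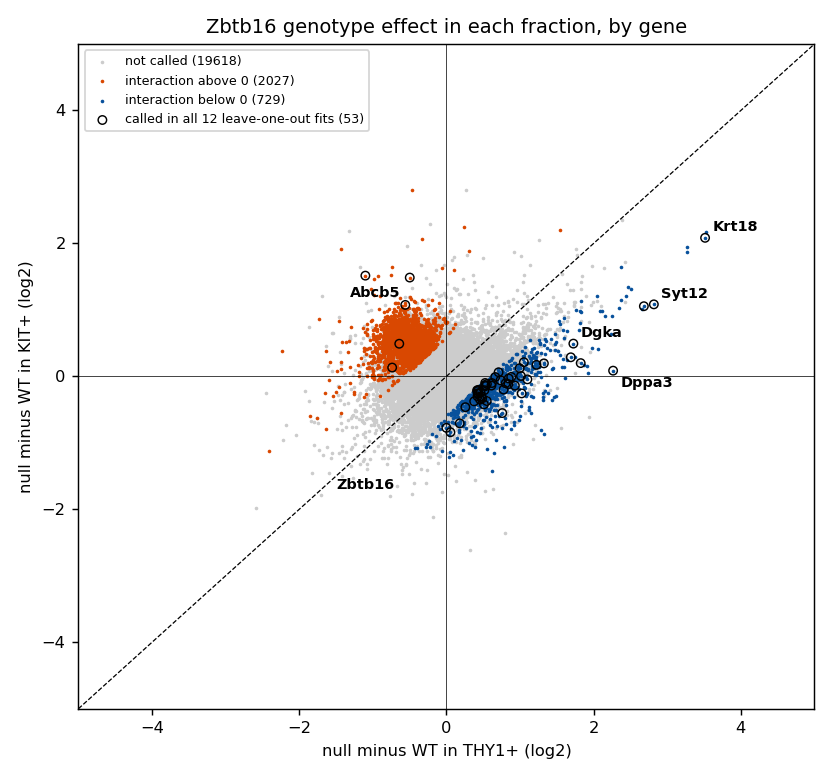
Change from WT to null in THY1+ uSPG (x axis, log2) against the change in KIT+ dSPG (y axis, log2) for 22374 genes, with interaction calls in orange (2027 above 0) and blue (729 below 0) and the 53 genes called in all 12 leave-one-out fits ringed. The dashed line marks equal change. Blue genes lie mainly to the right, raised in null THY1+ uSPG, with Krt18 farthest out among the named ones, while orange genes gather at modest opposite changes.

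The number of calls rested on the block and on single libraries. Without the block 7 genes were called (6 below and 1 above 0), and 5014 had an unadjusted p under 0.05. Leaving out 1 library at a time, with the block kept, gave from 68 calls (52 below and 16 above 0, without null KIT+ replicate 2) to 3435 calls (1046 and 2389, without null KIT+ replicate 1). Without null KIT+ replicate 3 there were 112 calls (83 and 29) and without null THY1+ replicate 3 there were 231 (143 and 88), so calls above 0 were lost to a greater extent than calls below 0. The other libraries whose absence lowered the count by over 1.5 times were WT KIT+ replicate 1 (791 calls), null THY1+ replicate 1 (1084), WT KIT+ replicate 2 (1451), null THY1+ replicate 2 (1545) and WT THY1+ replicate 1 (1641). The split also moved with scaling. When libraries were centred on the median of genes with a mean of at least 1 FPKM, which shifted the median of all genes from 0.00 to -0.15, there were 1623 calls above and 1679 below 0, and quantile normalization gave 1652 and 1105.

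**Figure D2:**
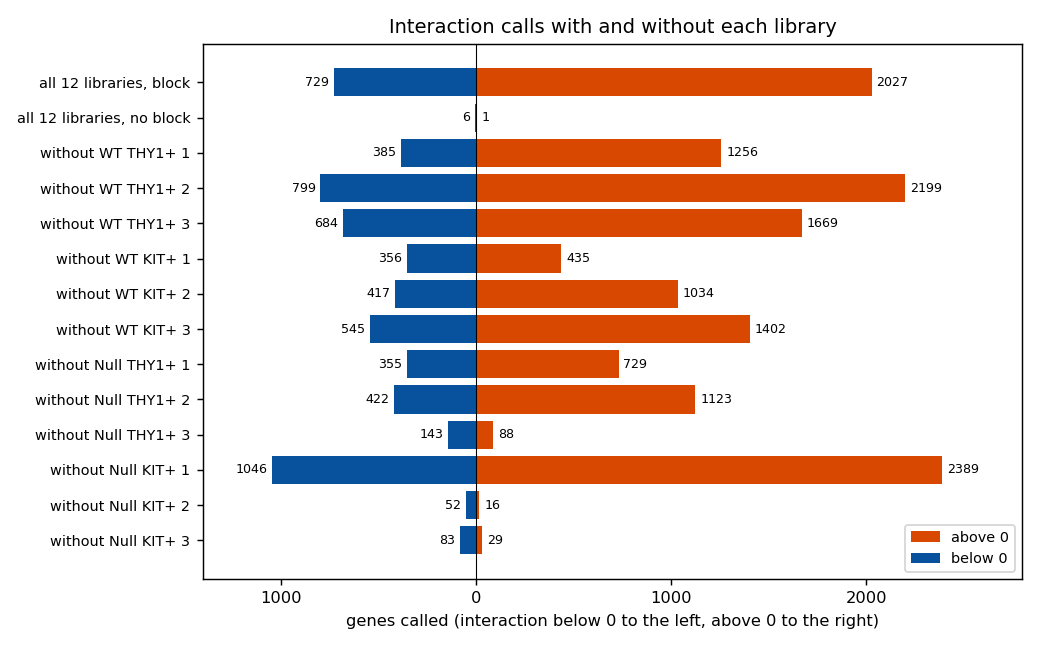
Number of genes called for the interaction (x axis), below 0 in blue to the left and above 0 in orange to the right, with all 12 libraries, without the block, and without each library in turn. Counts above 0 ranged from 16 to 2389 over the libraries left out and counts below 0 from 52 to 1046.

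Because of this dependence, the genes called in the same direction in all 12 leave-one-out fits are described first. There were 53, of which 48 were below 0 (0.215% of genes tested) and 5 above 0 (0.0223%), and they included all 7 calls of the fit without the block. Of the 48, 26 were called higher in null THY1+ uSPG, 23 of these in that fraction alone and 3 in both fractions. A further 3 were called lower in null KIT+ dSPG alone, and 19 were called in neither fraction. In 41 of the 48 every null THY1+ library lay above every WT THY1+ library, and in 13 every null KIT+ library lay below every WT KIT+ library. The 48 were picked on these same libraries, and the share of all genes tested that separate so was not counted. These counts therefore only describe the calls.

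Dgka, which encodes diacylglycerol kinase alpha, an enzyme that turns diacylglycerol into phosphatidic acid, shared the lowest adjusted p of the stable calls with Ncbp1. It was at 10.04, 9.86 and 9.28 FPKM in WT THY1+ uSPG and at 32.6, 31.5 and 33.0 FPKM in null THY1+ uSPG. Its KIT+ levels were 8.74, 8.15 and 7.69 FPKM in WT and 11.8, 11.1 and 11.7 FPKM in null libraries. WT and null libraries did not overlap in either fraction, but the rise was 1.72 (log2) in THY1+ uSPG and 0.49 in KIT+ dSPG, the latter short of 1.5-fold. Its interaction was -1.23 (SE 0.0828, adjusted p 0.00155), from replicate differences of -1.26, -1.22 and -1.22, and it was past the threshold without the block (adjusted p 0.00413). Dgka (ENSMUSG00000025357) spans bases 128720134 to 128744855 of chromosome 10 (GRCm38, minus strand).

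Krt18, a type I keratin of simple epithelia, and Syt12, a member of the synaptotagmin family of vesicle proteins, are of another kind: they rose in both fractions, but more in THY1+ uSPG. Krt18 was at 1.02, 1.38 and 1.32 FPKM in WT and 13.9, 14.5 and 17.1 FPKM in null THY1+ uSPG, and at 0.476, 0.487 and 0.508 FPKM in WT and 2.34, 2.30 and 2.58 FPKM in null KIT+ dSPG. Its log2 change was 3.51 in THY1+ uSPG and 2.08 in KIT+ dSPG, with an interaction of -1.43 (SE 0.164, adjusted p 0.0126). All null libraries of a fraction lay above all WT libraries of that fraction. Syt12 was at 0.498, 0.571 and 0.547 FPKM in WT and 4.18, 5.13 and 3.96 FPKM in null THY1+ uSPG, against 0.557, 0.513 and 0.532 FPKM in WT and 1.11, 1.46 and 1.18 FPKM in null KIT+ dSPG (interaction -1.73, SE 0.192, adjusted p 0.0117). A930001C03Rik (interaction -1.63), a noncoding transcript on the opposite strand, overlaps the end of Syt12, and since the sources used here do not say whether counting used strand, their reads cannot be told apart.

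Rxrg, retinoid X receptor gamma, and D030018L15Rik, which the study names as higher in null THY1+ uSPG, had the same form and were called in 9 and 10 of the 12 leave-one-out fits. Rxrg was at 0.390, 0.753 and 0.792 FPKM in WT and 6.57, 7.89 and 6.12 FPKM in null THY1+ uSPG, but at 0.198, 0.223 and 0.251 FPKM in WT and 0.923, 1.43 and 1.14 FPKM in null KIT+ dSPG (interaction -1.32, SE 0.265, adjusted p 0.0200). For D030018L15Rik the interaction was -1.39 (SE 0.249, adjusted p 0.0179), with changes of 3.27 in THY1+ uSPG and 1.88 in KIT+ dSPG. The added 0.1 FPKM understates changes from levels this low.

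Dppa3 (Stella), a germ cell and early embryo protein that protects DNA methylation in the zygote, had the most negative interaction of the named genes, -2.18 (SE 0.247, adjusted p 0.0126). It was at 0.372, 0.187 and 0.286 FPKM in WT THY1+ uSPG and at 2.75, 1.14 and 1.54 FPKM in null THY1+ uSPG. In WT KIT+ dSPG it was already at 2.36, 1.31 and 1.82 FPKM, and null KIT+ dSPG had 3.41, 1.31 and 1.5002 FPKM. The null THY1+ level of Dppa3 therefore overlapped the level of both KIT+ groups, and only WT THY1+ uSPG stood apart.

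Ncbp1, the large subunit of the nuclear cap-binding complex, and Tmc7, of the transmembrane channel-like family, about doubled in null THY1+ uSPG and did not pass the test in KIT+ dSPG. Ncbp1 was at 51.3, 50.9 and 58.4 FPKM in WT and 93.8, 92.9 and 101 FPKM in null THY1+ uSPG, and at 46.7, 47.0 and 50.8 FPKM in WT and 44.4, 40.8 and 48.2 FPKM in null KIT+ dSPG (interaction -0.96, SE 0.0677, adjusted p 0.00155). Tmc7 was at 8.55, 8.79 and 8.36 FPKM in WT and 17.6, 17.1 and 17.5 FPKM in null THY1+ uSPG, and between 7.58 and 8.67 FPKM in all 6 KIT+ libraries (interaction -1.01, SE 0.0900, adjusted p 0.00648). For both genes the null THY1+ libraries stood apart from the other 9. Ccnb1ip1 (HEI10), a ubiquitin ligase of meiotic crossover sites, crossed over instead. It was at 8.48, 8.61 and 8.65 FPKM in WT and 15.1, 13.2 and 15.5 FPKM in null THY1+ uSPG, but at 15.3, 11.8 and 13.2 FPKM in WT and 10.6, 7.84 and 9.07 FPKM in null KIT+ dSPG (interaction -1.31, SE 0.123, adjusted p 0.00648). In WT it was higher in KIT+ dSPG and in the null higher in THY1+ uSPG, in every replicate.

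**Figure D3:**
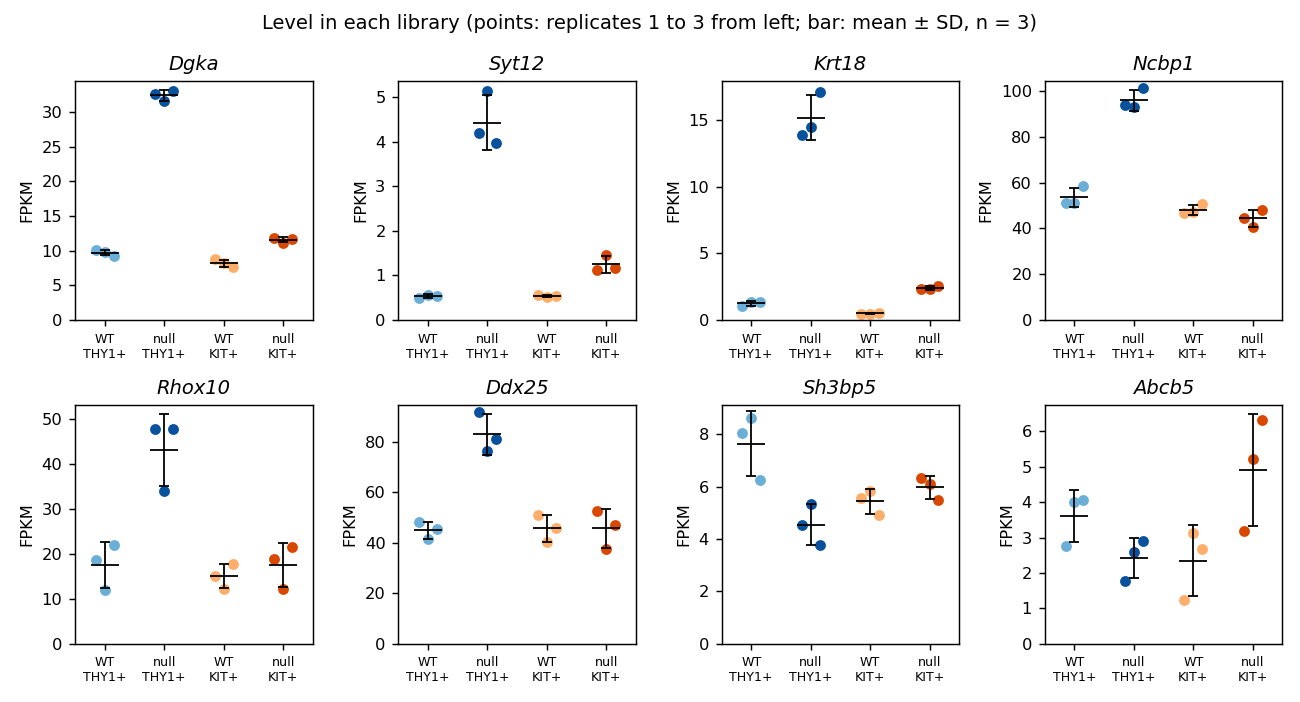
FPKM (y axis, from 0) of 8 genes in each of the 12 libraries, as points, with the mean and SD of each group of 3. Ncbp1, Rhox10 and Ddx25 stand apart in null THY1+ uSPG alone, Dgka, Syt12 and Krt18 lie above WT in both null groups and most so in THY1+ uSPG, and Sh3bp5 and Abcb5 show the opposite interaction.

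Rhox10, an X-linked homeobox gene of spermatogonia, was at 18.7, 11.95 and 21.9 FPKM in WT and 47.9, 33.9 and 47.8 FPKM in null THY1+ uSPG, against 15.2, 12.3 and 17.7 FPKM in WT and 18.8, 12.2 and 21.6 FPKM in null KIT+ dSPG (interaction -1.13, SE 0.120, adjusted p 0.00917). Ddx25, a testis RNA helicase, was at 41.4 to 48.1 FPKM in WT THY1+ uSPG, 76.3 to 92.1 FPKM in null THY1+ uSPG and 37.4 to 52.6 FPKM in the 6 KIT+ libraries (interaction -0.89, SE 0.0853, adjusted p 0.00663). Both stood apart in null THY1+ uSPG alone. Also among the stable calls were Nup62cl (-1.05), BC049730 (-1.62), Ccdc113 (-1.07), Eif2c5 (-1.14), the sperm surface gene Spa17 (-0.84), the mRNA export factor Nxf2 (-0.75), the tudor-domain kinase gene Stk31 (-0.72), the piRNA factor Asz1 (-0.71), Adad1 (-0.78), Phf7 (-0.66), the male germ cell gene Topaz1 (-0.66) and Bmi1 (-0.63), a subunit of Polycomb repressive complex 1. Bmi1 was the only one of 27 genes for Polycomb, histone deacetylase and corepressor subunits to be called. That share of 3.7% is near the 3.26% of all genes tested, and at 21.03 to 38.4 FPKM the groups of Bmi1 overlapped.

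X-linked genes were 8 of the 47 stable calls below 0 that matched the annotation (17.0%), 69 of 718 calls below 0 (9.61%), 97 of 1998 calls above 0 (4.86%) and 4.47% of all genes tested. The 8 are Rhox10, Nup62cl, Nxf2, Eif2c5, 3830417A13Rik, Gm595, Gm6880 and Gm14514, and several X-linked families share near-identical copies, so reads of Nxf2 and of the predicted genes may be split among relatives. This count was made after the values were seen and was given no test.

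The promoters of the stable calls were read for 3 motifs: CACGTG, the canonical E-box, GCGGGAA, an E2F-type site, and TGACGTCA, the full cyclic AMP response element, on both strands. The sequences are the 300 bases of RefSeq promoters on GRCm38.p6, from 250 before to 50 after a start, at the first start listed for a gene, and 32 of the 48 stable calls below 0 matched. CACGTG was in 7 of the 32 (21.9%), against 9.43% of 13254 promoters of genes tested, 11.4% of those of all calls below 0 and 5.88% of those of calls above 0. The 7 are Stk31, Topaz1, Phf7, Tbc1d7, Nxf2, Ddx25 and Bmi1. Among lists described below, CACGTG was in 28.6% of 14 promoters of immediate early genes, which lay above 0. It was in 26.3% of 19 promoters of meiosis genes and 8.33% of 12 of piRNA and germ granule genes, both below 0. Within these lists the motif was thus not confined to genes below 0. Over all calls it was in a larger share of promoters below 0 (11.4%) than above 0 (5.88%). GCGGGAA was in 3.12% of the 32 promoters and in 7.62% of those of genes tested, and TGACGTCA, found in the Tmc7 promoter, in 3.12% and 2.85%. The motifs do not overlap one another, they were chosen with results in view, and a match is a string of letters, not a binding site. Printed here are 5 promoters with CACGTG, because in each a match lies shortly before the start, and that of Krt18, which holds none of the 3 motifs, for comparison. Matches are in capitals, and all sequences run in the direction of the gene. They lie at chr6:49395289-49395588 (Stk31, plus strand), chr9:122746949-122747248 (Topaz1, plus), chr14:31251266-31251565 (Phf7, minus), chr13:43171452-43171751 (Tbc1d7, minus), chrX:134964705-134965004 (Nxf2, minus) and chr15:102027966-102028265 (Krt18, plus).
Stk31: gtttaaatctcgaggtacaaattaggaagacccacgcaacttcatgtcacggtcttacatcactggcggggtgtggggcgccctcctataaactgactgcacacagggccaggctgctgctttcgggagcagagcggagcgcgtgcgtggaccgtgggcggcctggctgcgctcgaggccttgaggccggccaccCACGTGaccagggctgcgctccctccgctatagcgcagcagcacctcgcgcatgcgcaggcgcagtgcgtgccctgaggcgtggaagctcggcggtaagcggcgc
Topaz1: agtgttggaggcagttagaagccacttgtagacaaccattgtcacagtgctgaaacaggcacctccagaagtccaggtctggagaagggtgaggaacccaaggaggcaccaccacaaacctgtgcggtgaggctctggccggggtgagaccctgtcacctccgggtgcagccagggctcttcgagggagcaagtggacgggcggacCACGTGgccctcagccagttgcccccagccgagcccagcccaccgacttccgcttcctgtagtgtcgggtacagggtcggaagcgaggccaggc
Phf7: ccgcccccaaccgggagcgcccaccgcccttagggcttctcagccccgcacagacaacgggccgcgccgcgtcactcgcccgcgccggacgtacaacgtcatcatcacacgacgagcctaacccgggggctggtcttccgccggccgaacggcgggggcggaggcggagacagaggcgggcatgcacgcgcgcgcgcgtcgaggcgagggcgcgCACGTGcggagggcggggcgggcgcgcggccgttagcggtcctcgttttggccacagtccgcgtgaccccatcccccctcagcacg
Tbc1d7: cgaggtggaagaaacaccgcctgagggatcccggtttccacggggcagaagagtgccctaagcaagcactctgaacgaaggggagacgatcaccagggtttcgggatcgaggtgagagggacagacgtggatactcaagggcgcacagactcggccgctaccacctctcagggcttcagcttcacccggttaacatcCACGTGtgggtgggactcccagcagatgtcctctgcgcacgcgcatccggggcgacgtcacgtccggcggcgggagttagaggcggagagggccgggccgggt
Nxf2: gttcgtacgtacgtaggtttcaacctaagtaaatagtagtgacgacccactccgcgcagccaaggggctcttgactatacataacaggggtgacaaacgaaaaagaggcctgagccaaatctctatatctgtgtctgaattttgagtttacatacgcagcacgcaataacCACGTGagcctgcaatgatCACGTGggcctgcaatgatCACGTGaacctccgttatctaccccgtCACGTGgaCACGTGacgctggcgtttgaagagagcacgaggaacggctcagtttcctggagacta
Krt18: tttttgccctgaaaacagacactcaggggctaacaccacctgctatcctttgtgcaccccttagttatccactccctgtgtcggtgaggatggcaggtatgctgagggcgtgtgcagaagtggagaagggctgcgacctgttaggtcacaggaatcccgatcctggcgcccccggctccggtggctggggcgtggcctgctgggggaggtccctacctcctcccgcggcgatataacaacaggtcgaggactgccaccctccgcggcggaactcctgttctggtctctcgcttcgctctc
The match begins 55 bases before the start in Stk31, 44 in Topaz1, 36 in Phf7 and 53 in Tbc1d7. In Nxf2 there are 5 matches, which begin 80, 61, 42, 15 and 7 bases before the start.

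The piRNA pathway silences transposons in fetal and postnatal male germ cells. A list of 14 genes of this pathway and of germ granules had all its values below 0, and 7 of its genes were called. The list median was -0.57 against 0.00 over all genes tested, where 3.26% were called below 0. The 7 were Ddx25, Exd1 (-0.76), Piwil4 (-0.74), Asz1, Gtsf1 (-0.68), Tdrd12 (-0.61) and Tdrkh (-0.59). Piwil4 (MIWI2), the nuclear PIWI protein, was at 8.82, 7.35 and 7.14 FPKM in WT and 15.8, 14.1 and 12.6 FPKM in null THY1+ uSPG, against 3.42, 4.11 and 3.61 FPKM in WT and 4.53, 3.89 and 3.70 FPKM in null KIT+ dSPG. Exd1 went the other way, being at 5.51 to 5.81 FPKM in WT and 4.59 to 4.78 FPKM in null THY1+ uSPG, and falling from 3.70, 4.02 and 4.05 FPKM in WT to 2.17, 1.57 and 1.93 FPKM in null KIT+ dSPG (change -1.02). In 4 of the 14 genes the call in THY1+ uSPG was an increase (background 4.36% of genes tested). In 1, Exd1, the call in KIT+ dSPG was a decrease (background 0.724%). The list's count fell to 2, Ddx25 and Asz1, without null THY1+ replicate 3 or without null KIT+ replicate 2, and to 0 without the block.

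Genes of meiosis were below 0 in 22 of 23 cases, and 8 were called (34.8%, against 3.26% of all genes tested), with a list median of -0.58. They were Tex12 (-1.10), Hormad1 (-1.04), Sycp3 (-0.81), Mei4 (-0.77), Syce3 (-0.76), Hormad2 (-0.69), Tex15 (-0.66) and Syce1 (-0.63), parts of the synaptonemal complex, of the chromosome axis or of double-strand break formation and repair. Tex12 was at 36.9, 32.0 and 42.9 FPKM in WT and 65.8, 50.5 and 60.8 FPKM in null THY1+ uSPG, and at 64.7, 37.6 and 50.6 FPKM in WT and 44.3, 29.5 and 38.1 FPKM in null KIT+ dSPG. Sycp3 was at 73.2, 59.9 and 83.7 FPKM in WT and 127, 88.2 and 124 FPKM in null THY1+ uSPG, against 157, 87.1 and 115 FPKM in WT and 134, 73.2 and 113 FPKM in null KIT+ dSPG. In both genes WT dSPG exceeded WT uSPG within each replicate number. In the null this order was turned in all 3 replicates for Tex12 and in replicates 2 and 3 for Sycp3. Stra8, the retinoic acid target that starts the meiotic programme, had 44.1 to 66.0 FPKM in WT and 39.8 to 60.3 FPKM in null THY1+ uSPG, where it was not called. In KIT+ dSPG it fell from 130, 90.7 and 123 FPKM to 71.6, 48.2 and 64.4 FPKM (change -0.90, interaction -0.76, SE 0.201, adjusted p 0.0342). Stra8 was the only called gene of 9 that mark differentiating spermatogonia (11.1%). The meiosis count ranged from 0, without null KIT+ replicate 2, to 13, without null KIT+ replicate 1, and the Stra8 interaction was called in 4 of 12 leave-one-out fits.

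All 10 genes of the list found in all germ cells were below 0 (median -0.46) and 3 were called (30%, against 3.26% of all genes tested). The calls were Rnf17 (-0.72), Dazl (-0.67) and Ddx4 (-0.61), the last being the germ cell RNA helicase Vasa. Ddx4 was at 178, 188 and 202 FPKM in WT and 239, 214 and 256 FPKM in null THY1+ uSPG, and at 159, 155 and 161 FPKM in WT and 146, 109 and 134 FPKM in null KIT+ dSPG. The list summed to 1209 to 1358 FPKM in WT and 1393 to 1669 FPKM in null THY1+ uSPG. In KIT+ dSPG it summed to 1139 to 1346 FPKM in WT and 870 to 1212 FPKM in null libraries, which overlapped. The summed level of these 10 genes thus moved in the sense of the interaction, and whether the germ cell share of the RNA changed was not tested. In sorted bulk RNA, fewer cells of a type and less RNA per cell cannot be told apart. After each library was centred on these 10 genes, a choice made after the values were seen, all 48 stable calls remained below 0 and 12 remained called, while the median of all genes moved to 0.47. The 12 were Dppa3 (-1.71), Syt12 (-1.27), A930001C03Rik (-1.16), BC049730 (-1.16), Krt18 (-0.96), 3830417A13Rik (-0.94), Ccnb1ip1 (-0.84), Gm23017 (-0.81), Dgka (-0.77), Eif2c5 (-0.68), Rhox10 (-0.66) and Ccdc113 (-0.60). Over all calls, 86 of 729 remained below 0 and called. The lists of meiosis and of the piRNA pathway then had medians of -0.11 each, with 1 and 0 calls.

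The markers of undifferentiated spermatogonia gave 0 calls by limma, against 8 above 0 when libraries were centred on germ cell genes (median 0.52). Among the 22 genes the median interaction was 0.05 as deposited, from -0.35 for Cd9 to 0.54 for Etv5, with 13 above and 9 below 0. This held also for genes that ZBTB16 loss changed strongly within a fraction. Neurog3, a marker of cells primed to differentiate, fell by 1.22 in THY1+ uSPG and by 1.19 in KIT+ dSPG (interaction 0.03, SE 0.204, adjusted p 0.931). T, Lhx1 and Eomes, transcription factors of undifferentiated spermatogonia that were all called lower in null THY1+ uSPG, had interactions of 0.32, 0.29 and 0.48 (adjusted p 0.458, 0.332 and 0.180), and the pluripotency factor Pou5f1 had -0.25 (adjusted p 0.412). Bcl6b (0.15), Etv5 (0.54), Uchl1 (-0.25), Gsta3 (0.55), Utf1 (-0.28), Nr5a2 (-0.36) and Tdrd5 (-0.38) were not called either. Cd9 had an adjusted p of 0.0268 but missed the fold limit. A p or a fold short of its limit does not show that the fractions responded alike.

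Of 9 genes that the study names as higher in null THY1+ uSPG, all were below 0 and 5 were called: Krt18, D030018L15Rik, Rhox10, Sycp3 and Cth, the cystathionine gamma-lyase gene of cysteine synthesis (-0.94, SE 0.177, adjusted p 0.0186). Of 8 named as lower there, all were above 0 and 3 were called: Jund (1.40), Fgfr1 (1.08) and Ccnd1 (0.61), the D-type cyclin of G1. Both lists were chosen on these libraries, and a gene picked for a large change in THY1+ uSPG leans towards an interaction of the opposite sign. Ccnd1 fell from 24.3, 28.1 and 22.7 FPKM to 12.8, 14.7 and 12.7 FPKM in THY1+ uSPG without overlap. Its KIT+ levels were 30.3, 28.0 and 27.4 FPKM in WT and 29.5, 22.7 and 19.04 FPKM in null libraries, which overlapped, and the interaction was called in 1 of 12 leave-one-out fits.

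A small block on chromosome 7 behaved differently from the rest. Zfp936, Gm7221 (annotated as Zfp977) and the noncoding EU599041 were the 3 stable calls that fell in null KIT+ dSPG with no call in THY1+ uSPG. Zfp936 was at 25.5, 25.03 and 27.7 FPKM in WT and 27.0, 24.0 and 27.2 FPKM in null THY1+ uSPG, against 24.4, 21.4 and 23.5 FPKM in WT and 15.1, 12.3 and 13.1 FPKM in null KIT+ dSPG (change -0.77, adjusted p 0.00225). Gm7221 was at 16.1 to 19.1 FPKM in the 6 THY1+ libraries, and at 18.5, 15.4 and 15.99 FPKM in WT and 10.3, 9.82 and 10.2 FPKM in null KIT+ dSPG (change -0.71). The null KIT+ libraries stood apart from the other 9 for both genes. All 3 genes begin between 42 and 44 Mb of chromosome 7, in a cluster of zinc finger genes. In 1240 windows of 2 Mb this one held the largest number of genes lower in null KIT+ dSPG, 6 of 36 tested (background 0.724%), the others being Gm2381, Zfp819 and Gm17067, with changes in KIT+ dSPG of -1.07, -0.61 and -0.62. The next windows held 3. The count was 4 without the block and 4 to 6 with any 1 library left out. The window was singled out after its values were seen, and reads of close zinc finger paralogs can be placed at several genes, so these 6 may not be 6 separate measurements. Over the 361 genes tested whose symbol is Zfp and a number, 16 were called below 0 and 18 above (median -0.09). Such genes were 1.61% of all genes tested, 2.20% of calls below 0 and 0.888% of calls above 0.

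Among calls above 0 only 5 were stable, and 2 of those are named protein-coding genes. Sh3bp5, whose product acts on the recycling GTPase Rab11, was at 8.06, 8.62 and 6.26 FPKM in WT and 4.52, 5.36 and 3.78 FPKM in null THY1+ uSPG, and at 5.58, 5.84 and 4.92 FPKM in WT and 6.33, 6.11 and 5.48 FPKM in null KIT+ dSPG (interaction 0.87, SE 0.121, adjusted p 0.0141). Abcb5, an ABC transporter, was at 2.75, 3.99 and 4.05 FPKM in WT and 1.78, 2.58 and 2.90 FPKM in null THY1+ uSPG, and at 1.23, 3.14 and 2.68 FPKM in WT and 3.19, 5.21 and 6.31 FPKM in null KIT+ dSPG (interaction 1.63, SE 0.220, adjusted p 0.0139). For Abcb5 WT and null overlapped in THY1+ uSPG and stood apart in KIT+ dSPG, and within each replicate number the null was lower in THY1+ uSPG and higher in KIT+ dSPG. The others were the short RNAs Mir199a-2 (1.13) and Gm26280 (1.98) and the pseudogene Gm13168 (2.62), which rested on 1 to 12 reads a library.

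Among the lists with calls above 0, immediate early genes had the highest share called. Of 18 immediate early genes, which respond within minutes to growth factors and to cell stress, all were above 0 and 15 were called (background 9.06%), with a median of 1.33. Jun was at 22.8, 20.7 and 27.1 FPKM in WT and 11.0, 21.4 and 12.04 FPKM in null THY1+ uSPG, and at 9.97, 19.2 and 28.3 FPKM in WT and 22.4, 42.5 and 43.7 FPKM in null KIT+ dSPG (interaction 1.70, SE 0.403, adjusted p 0.0264). Junb was at 46.5, 25.9 and 43.2 FPKM in WT and 21.03, 28.1 and 23.9 FPKM in null THY1+ uSPG, and at 35.3, 55.1 and 67.9 FPKM in WT and 82.0, 103 and 126 FPKM in null KIT+ dSPG (1.63). For Jun the groups overlapped in both fractions, and for Junb the null KIT+ libraries stood above all others. Ier2 (1.59), Fos (1.52), Jund and Egr1 (1.19) were called too. The median of the list was 1.80 in replicate 1, 0.72 in replicate 2 and 1.46 in replicate 3. The count fell from 15 to 0 without null KIT+ replicate 2 or without the block, and was 15 without null KIT+ replicate 1.

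Collagens and other matrix genes behaved alike. Of 19 genes for basement membrane and matrix, all were above 0 and 11 were called (57.9%, against 9.06% of all genes tested). The list median was 1.36, and Col6a2 (1.52), Col6a1 (1.48), Thbs2 (1.48) and Sparc (1.47) were among the calls. Of 43 collagen genes 15 were called (34.9%, median 0.88). Of 34 laminin and integrin genes 1 was called below 0 and 10 above (29.4%), with Lamc3 (1.57), Itga9 (1.46) and Lama4 (1.39) leading. Col1a2, a chain of type I collagen, was at 55.5, 52.9 and 24.1 FPKM in WT and 18.7, 51.5 and 15.2 FPKM in null THY1+ uSPG, and at 15.6, 46.5 and 19.6 FPKM in WT and 25.5, 85.6 and 37.6 FPKM in null KIT+ dSPG (interaction 1.60, SE 0.458, adjusted p 0.0415). Replicate 2 was the highest library in 3 of the 4 groups, so the groups overlapped, and it was called in 4 of 12 leave-one-out fits. The matrix and collagen calls were 0 without WT KIT+ replicate 1, and 16 and 22 without null KIT+ replicate 1.

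Markers of several testis somatic cells were above 0 too. Of 8 Leydig cell genes 6 were called (median 1.33), of 13 peritubular and stromal genes 8 (1.32), of 14 Sertoli cell genes 8 (0.89), of 11 endothelial genes 4 (0.85) and of 13 macrophage genes 2 (0.81). The shares called ran from 15.4% for macrophages to 75% for Leydig cells, against 9.06% of all genes tested. The T cell list differed, with 4 genes above and 4 below 0, a median of 0.04 and 2 of 8 called above 0. Cyp17a1, a steroidogenic enzyme of Leydig cells, was at 19.1, 24.7 and 13.4 FPKM in WT and 8.67, 13.9 and 7.55 FPKM in null THY1+ uSPG, and at 344, 604 and 385 FPKM in WT and 465, 650 and 656 FPKM in null KIT+ dSPG (interaction 1.36, SE 0.252, adjusted p 0.0186). Other leading members were Cyp11a1 (1.47) and Insl3 (1.40) of Leydig cells, Inha (1.46), Clu (1.45) and Aard (1.35) of Sertoli cells, Col3a1 (1.47) and Dcn (1.47) of stroma, Cdh5 (1.43) and Eng (1.24) of endothelium, and Cd68 (0.86) and Csf1r (0.78) of macrophages. The 5 red blood cell genes tested, globins and Alas2, were also above 0, with 0 called by limma. Without null KIT+ replicate 2 the count was 1 for Leydig cells and 0 for the other lists, and without the block it was 0 for all of them.

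The summed levels of these markers moved between groups in the same sense. The Leydig list summed to 87.9 to 126 FPKM in WT and 53.4 to 87.6 FPKM in null THY1+ uSPG, and to 1226 to 2286 FPKM in WT and 2058 to 3140 FPKM in null KIT+ dSPG. The Sertoli list summed to 57.4 to 106 and 38.4 to 52.8 FPKM in THY1+ uSPG and to 141 to 183 and 213 to 255 FPKM in KIT+ dSPG, without overlap in either fraction. The stromal list summed to 516 to 767 and 326 to 538 FPKM in THY1+ uSPG and to 245 to 487 and 386 to 789 FPKM in KIT+ dSPG. The macrophage list summed to 1086 to 1267 FPKM in WT and 506 to 962 FPKM in null THY1+ uSPG, but to only 6.94 to 18.99 FPKM in the 6 KIT+ libraries, so for macrophages the change lay in THY1+ uSPG. For scale, the list of all germ cells summed to 1209 to 1358 FPKM in WT THY1+ uSPG. In KIT+ dSPG it summed to 1139 to 1346 FPKM in WT and 870 to 1212 FPKM in null libraries. The lists hold different genes, so the sums do not give shares of cells. No gene of the somatic lists was at 0 in all libraries of a group. The immediate early and matrix genes moved with the somatic lists, and the part of somatic cells in their values was not tested.

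**Figure D4:**
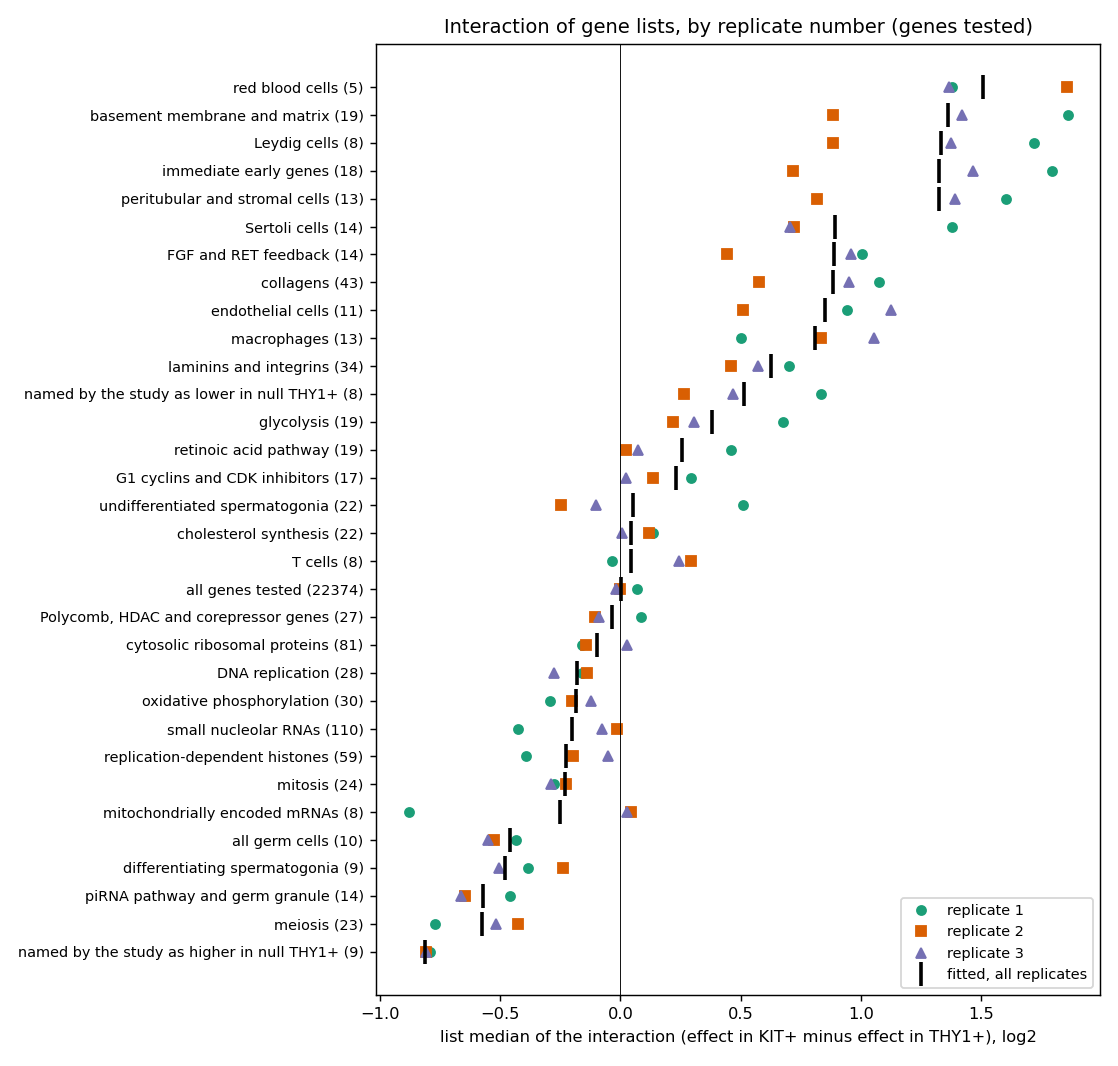
Median interaction (x axis, log2) of each gene list (y axis, with the number of genes tested), computed within each replicate number (coloured points) and from the fit (black bars). The Leydig, Sertoli, stromal, endothelial, macrophage, matrix and immediate early lists lie above 0 in all 3 replicates, with replicate 2 lowest for most, and the lists of all germ cells, meiosis and the piRNA pathway lie below 0 in all 3.

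Imprinted genes that govern growth stood out in the same direction. Of 80 genes tested in the 2-Mb window of chromosome 12 that holds the Dlk1 to Meg3 domain, 23 were called above 0 and none below (background 9.06%), the largest number in any of the 1240 windows. The next window held 18 of 136. The chromosome 12 window was singled out by this count after the values were seen, so its rank only describes the choice. Meg3, the maternally expressed noncoding RNA of the domain, was at 8.30, 9.91 and 9.45 FPKM in WT and 4.34, 7.56 and 4.91 FPKM in null THY1+ uSPG, and at 3.48, 7.57 and 5.89 FPKM in WT and 6.52, 9.96 and 10.5 FPKM in null KIT+ dSPG (interaction 1.45, SE 0.228, adjusted p 0.0151). The THY1+ groups of Meg3 did not overlap and the KIT+ groups did. Dlk1 (1.48), Rtl1 (1.08), Rian (1.02) and Mirg (0.99) were called too, and most of the rest were snoRNAs and microRNAs processed from the same long transcripts, so the 23 are not independent. The count was 1 without null KIT+ replicate 2 or 3, 26 without null KIT+ replicate 1 and 0 without the block.

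**Figure D5:**
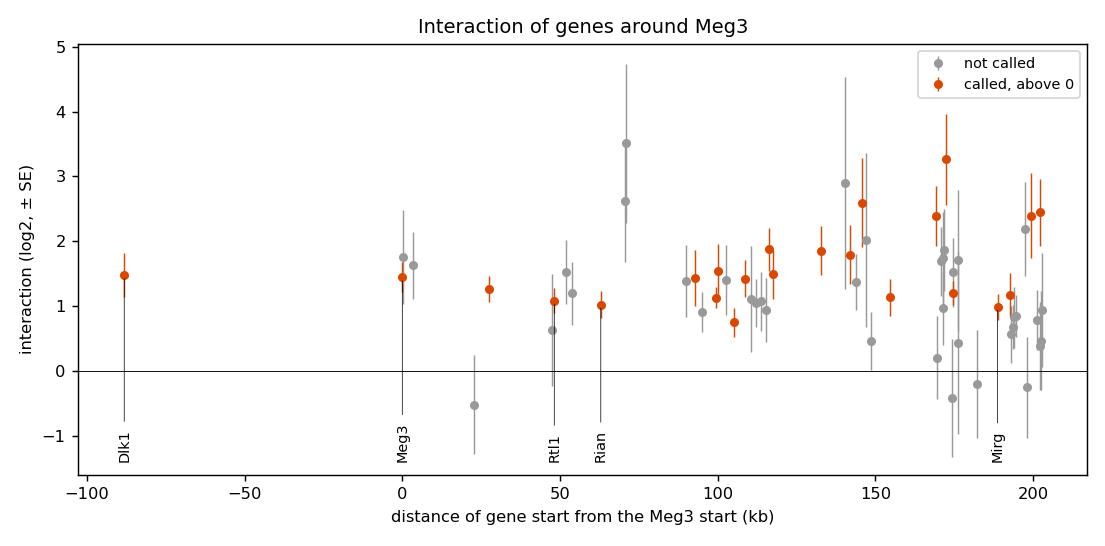
Interaction (y axis, log2, with SE) of 62 genes whose start lies within 300 kb of the Meg3 start (x axis, kb), with calls in orange. Values were above 0 for 58 of the 62, and the 23 calls include Dlk1, Meg3, Rtl1, Rian and Mirg.

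A list of 21 imprinted growth genes, made after the values were seen, includes 6 of this domain, of which 5 are the calls just named. Of the other 15, 9 were called and 15 were above 0 (median 0.96), among them Plagl1 (1.55), Gnas (1.36), Sgce (1.35), Peg3 (1.29), Igf2 (1.03), Cdkn1c (1.003), H19 (0.96) and Mest (0.88). Plagl1, a zinc finger activator of this gene network, was one of the genes called in opposite directions, at 19.5, 20.5 and 14.8 FPKM in WT and 9.30, 13.2 and 9.47 FPKM in null THY1+ uSPG, and at 7.63, 15.01 and 7.18 FPKM in WT and 12.6, 20.5 and 15.99 FPKM in null KIT+ dSPG. Igf2r (0.06), Nnat (0.17) and Dio3 (-0.30) were not called. These genes are also made by testis stroma, whose markers moved alike, and the part of stroma in the result was not tested. The count over all 21, 14, was 0 without null KIT+ replicate 2, 1 without null KIT+ replicate 3 and 0 without the block.

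Other genes called in opposite directions were Ly6c1, Adh1 and Ms4a6c, named with Plagl1 and Meg3 because the smaller of their changes was largest among genes of at least 2 FPKM in a group, predicted genes and small RNAs aside. Gm13168 was also one, below that level. Adh1, an alcohol dehydrogenase that can act on retinol, fell from 6.63, 7.82 and 6.86 FPKM to 2.83, 5.16 and 3.83 FPKM in THY1+ uSPG and rose from 35.6, 79.4 and 73.4 FPKM to 65.8, 124 and 131 FPKM in KIT+ dSPG, where the groups overlapped (interaction 1.66, SE 0.257, adjusted p 0.0150). Ly6c1 (2.11) is an endothelial and myeloid surface antigen. Ms4a6c (1.503), a macrophage gene at 14.1 to 16.7 FPKM in WT THY1+ uSPG, was at 0 to 0.038 FPKM in WT and 0.0726 to 0.109 FPKM in null KIT+ dSPG, and its value in that fraction rests on a few reads.

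The retinoic acid pathway split: Dhrs3 (1.46), Aldh1a3 (1.62) and Aldh1a1 (1.26), which handle retinaldehyde, were called above 0, and Rxrg (-1.32), Crabp1 (-0.75) and Cyp26a1 (-0.65), of retinoid binding, signalling and breakdown, below. Of these 19 genes 15.8% were called in each direction, against 9.06% above and 3.26% below 0 over all genes tested. Both counts were 0 without null KIT+ replicate 2 or without the block. Dhrs3 was at 7.998, 7.98 and 7.02 FPKM in WT and 3.49, 6.17 and 3.66 FPKM in null THY1+ uSPG, and at 8.15, 15.4 and 12.2 FPKM in WT and 13.9, 23.5 and 17.9 FPKM in null KIT+ dSPG. Of 14 FGF and RET feedback genes 5 were called above 0 (35.7%, against 9.06% of all genes tested), with a median of 0.89. The calls were Fos, Etv1 (1.42), Fgfr1, Fgfr2 (1.03) and Dusp6 (0.91), while Etv4 (-0.08), Il17rd (-0.09) and Spry4 (0.44) were not called. This count too was 0 without null KIT+ replicate 2 or without the block. Fgfr1, a receptor through which growth factors act on stem cells, was at 6.62, 7.99 and 4.68 FPKM in WT and 3.20, 5.07 and 2.68 FPKM in null THY1+ uSPG, and at 3.29, 5.48 and 3.498 FPKM in WT and 3.97, 6.95 and 3.97 FPKM in null KIT+ dSPG, which overlapped.

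Cell cycle inhibitors of the G1 phase, Cdkn1c (1.003), Cdkn2c (0.96) and the pocket protein gene Rbl2 (0.85), were called with Ccnd1 among 17 G1 genes. This was a share of 23.5%, against 9.06% of all genes tested. The count was 0 without null THY1+ replicate 3, without null KIT+ replicate 2 or without the block. Cdkn2c was at 6.16, 4.61 and 4.77 FPKM in WT and 3.502, 3.93 and 3.38 FPKM in null THY1+ uSPG, and at 5.33, 5.51 and 5.63 FPKM in WT and 6.54, 7.83 and 8.46 FPKM in null KIT+ dSPG, without overlap in either fraction. Lists of DNA replication (1 call, Rfc4, -0.73, and a median of -0.18) and mitosis (1 call, Bub1, -0.61, and a median of -0.23) had called shares of 3.57% and 4.17%, near the 3.26% of all genes tested, and 0 of 30 genes of oxidative phosphorylation were called by limma (median -0.18). The medians of all 3 lists turned above 0 when libraries were centred on germ cell genes (0.29, 0.23 and 0.28). Of 19 glycolysis genes 2, Tpi1 (1.06) and Ldhb (0.69), were called (median 0.38), and this share of 10.5% is near the 9.06% of all genes tested.

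Among gene families taken by name pattern, 5 of 59 replication-dependent histones (8.47%) were called above 0, a share near the 9.06% of all genes tested, and 0 without null THY1+ replicate 3 or without the block. Hist2h3b (0.98), Hist1h1b (0.95) and Hist1h2bh (0.84) were among them, and the family's median was -0.23, or 0.24 when centred on germ cell genes. Of 81 ribosomal protein genes 3 (3.70%) were called below 0, near the 3.26% of all genes tested: Rpl3l (-1.10), Rpl39l (-0.73) and Rpl10l (-0.68), paralogs of the general genes. The family's median was -0.10, or 0.37 when centred on germ cell genes. Rpl39l was at 129, 117 and 158 FPKM in WT and 184, 158 and 180 FPKM in null THY1+ uSPG, and at 122, 91.2 and 122 FPKM in WT and 102, 69.3 and 91.9 FPKM in null KIT+ dSPG. Of 110 small nucleolar RNAs, Snord1b (-1.36) and Snord57 (-0.71) were called below 0 (1.82%) and Snord14e (0.62) above (0.909%). Both shares were under those of all genes tested, 3.26% and 9.06%. Values of these families depend on how reads with several alignments were placed.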

How the data were processed

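RNA of sorted spermatogonia was measured in 12 Zbtb16 libraries (ribosomal RNA removed, stranded, single reads). Per the study's methods and the submitters' processing notes, the authors aligned reads to mm10 with Novoalign, kept reads with several alignments and deposited FPKM per Ensembl gene, and tested counts with DESeq2. The strand used in counting is not given in the sources used here. Here log2(FPKM + 0.1) of the 22374 of 23177 genes with a mean of at least 0.1 FPKM was fitted with limma 3.58.1 in R 4.3.3 (trend and robust settings, two-sided), with 4 groups and the replicate number as a block, and p-values were adjusted by Benjamini-Hochberg. Calls were genes changed at least 1.5-fold with an adjusted p no higher than 0.05. Fold changes of low genes are understated by the added 0.1. In simulated data for the interaction on 22374 genes, 67% of changes of log2 1 and 89% of log2 2 were recovered, with 3 false calls. The simulation drew independent residuals for each gene around an additive replicate block, with no shift shared by the genes of a library. It checks the fit and does not give the error rate of the calls in the real libraries. Per the study's methods replicates were derived independently, each isolation from a pool of 3 mice. The members, gene lists and the rule for named genes (calls of the fit without the block, stable calls with the largest interactions, up to 3 leading calls a list, opposite calls, genes the study names) were chosen with earlier results of these data known. Depth was estimated from whole-read steps of low values (86.9 to 89.4% whole within 0.03). The numbers of replicates are not said to mark a shared animal, litter or day. The alternatives were other pseudocounts, filters, scalings, weights and blocks, and leaving out libraries. The result of 1 gene that this rule names is not reported here.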

Additional observations from a re-analysis of the deposited data

Results flagged for a closer look

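The interaction is itself the test of whether the effect of ZBTB16 loss differs between the fractions. Reported genes that the rule for named genes picked and that passed it (limma, with the replicate block) are listed here. Each is given with its interaction on the log2 scale. Other called genes mentioned above are left out, so the groups that follow cover the listed genes only. The interactions below 0 called in all 12 leave-one-out fits were Dppa3 -2.18, Syt12 -1.73, BC049730 -1.62, Krt18 -1.43, Ccnb1ip1 -1.31, Dgka -1.23, Eif2c5 -1.14, Rhox10 -1.13, Ccdc113 -1.07, Nup62cl -1.05, Tmc7 -1.01, Ncbp1 -0.96, Ddx25 -0.89, Gm7221 -0.89 and Bmi1 -0.63. The interactions below 0 called in 7 to 11 of the 12 fits were D030018L15Rik -1.39, Rxrg -1.32, Tex12 -1.10, Rpl3l -1.10, Cth -0.94, Sycp3 -0.81, Exd1 -0.76, Piwil4 -0.74, Rpl39l -0.73, Rfc4 -0.73, Rnf17 -0.72 and Ddx4 -0.61. The interactions below 0 called in fewer than 7 of the 12 fits were Snord1b -1.36, Hormad1 -1.04, Stra8 -0.76, Snord57 -0.71, Rpl10l -0.68, Dazl -0.67 and Bub1 -0.61. The interactions above 0 called in all 12 leave-one-out fits were Sh3bp5 0.87, Abcb5 1.63 and Gm13168 2.62. The interactions above 0 called in 7 to 11 of the 12 fits were Rbl2 0.85, Hist1h1b 0.95, Cdkn2c 0.96, Hist2h3b 0.98, Fgfr2 1.03, Tpi1 1.06, Fgfr1 1.08, Aard 1.35, Cyp17a1 1.36, Jund 1.40, Insl3 1.40, Meg3 1.45, Clu 1.45, Inha 1.46, Dhrs3 1.46, Dcn 1.47, Cyp11a1 1.47, Ms4a6c 1.503, Plagl1 1.55, Junb 1.63, Adh1 1.66 and Ly6c1 2.11. The interactions above 0 called in fewer than 7 of the 12 fits were Ccnd1 0.61, Snord14e 0.62, Ldhb 0.69, Csf1r 0.78, Ebp 0.81, Hist1h2bh 0.84, Cd68 0.86, Cdkn1c 1.003, Eng 1.24, Lama4 1.39, Cdh5 1.43, Itga9 1.46, Col3a1 1.47, Thbs2 1.48, Col6a1 1.48, Col6a2 1.52, Fos 1.52, Lamc3 1.57, Ier2 1.59, Col1a2 1.60, Aldh1a3 1.62 and Jun 1.70. The 12 libraries that gave these values also chose the genes, and no cause was tested.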

How the results depend on the processing

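Counts of calls depended on the replicate block. Without the block the interaction had 7 calls, the THY1+ comparison 890 and the KIT+ comparison 58. Same-numbered libraries deviated together in 16 of 18 pairs (mean r 0.327, lowest -0.03), each of the 12 libraries correlated best with its own number, and the labels do not say what the numbers share, so the pairing is a hint from the data. Without the block and without null KIT+ replicate 1, which was chosen with results known, the interaction had 867 calls. Leaving out 1 library or 1 replicate number gave 0 to 3435 interaction calls, 151 to 2010 calls in THY1+ uSPG and 1 to 1496 in KIT+ dSPG. The interaction had 0 calls by limma without replicate 2 (5540 genes at an unadjusted p under 0.05) and without replicate 3 (4982). With no fold limit it had 4307 calls and with an adjusted p of at most 0.01 it had 12. A pseudocount of 1 gave 834 calls in THY1+ uSPG and 200 in KIT+ dSPG, and a mean of at least 1 FPKM gave 1214 in THY1+ uSPG. In KIT+ dSPG array weights gave 1735 calls and the fit with no trend and no robust setting 279. Centring on germ cell genes, added after the data were seen, gave 7486 interaction calls, 4989 in THY1+ uSPG and 1743 in KIT+ dSPG. The cause of these shifts was not tested. None of the 82 named genes that were called changed sign under the alternatives run, but 9 of the 15 named genes that were not called did, and so did the medians of 12 of 31 lists, 8 of them only when centred on germ cell genes. Depth limits genes near the added 0.1 FPKM, where a library holds a few reads.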
